A study of Homo sapiens with 18 samples.

Results

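The regions described here were open in 2 head and neck squamous cell carcinoma lines, SCC1 and SCC6, and were not called in the other line studied, SCC25. A region of the merged table was taken when it overlapped, by at least 1 base, a peak in 3 or more SCC1 libraries and in 3 or more SCC6 libraries and a peak in none of the 6 SCC25 libraries, with both treatments counted. This rule chose 706 of 115087 regions (0.613%). The assay was ATAC-seq: a transposase cuts DNA where chromatin is open, and the fragments are sequenced and counted. Cells of each line received cetuximab, an antibody that blocks the epidermal growth factor receptor (EGFR), at 100 nM every day, or phosphate-buffered saline (PBS) as the control, for 5 days. The groups were SCC1 cetuximab (n = 3), SCC1 PBS (n = 2, replicates 1 and 3; replicate 2 was not analysed here), SCC6 cetuximab (n = 3), SCC6 PBS (n = 3), SCC25 cetuximab (n = 3) and SCC25 PBS (n = 3). Each line stands for the tumour of a single donor, and the sources do not say that replicates came from separate cultures, so the p-values measure the spread between these libraries, which may be technical. The regions were chosen by the peak calls of these same libraries, so their low signal in SCC25 is a description and was not tested. The treatment contrasts within SCC1 and within SCC6 were tested.

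Open chromatin marks promoters, where transcription starts, and enhancers, which lie at a distance from genes and are often open in only some cell types. Transcription factors occupy such sites by recognising short sequence motifs. In squamous epithelium these include AP-1, TFAP2, GRHL and p63, and the TEAD factors, through which the co-activators YAP and TAZ of the Hippo pathway reach DNA. EGFR signals to ERK and on to AP-1 and other factors.

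Stretches from 7 of the regions are printed here, so that the motif content described later can be read in the sequence itself. They are regions with a clear change with cetuximab, 1 lower in SCC1 and 1 in each direction in SCC6, and the strongest promoter and non-promoter regions, leaving out regions that touch untranslated sequence and 1 chromosome not used for sequences. All are on the plus strand of GRCh37 (hg19), and capitals mark matches to any of the 16 motifs searched. The first, in an intron of CAMK1G near LAMB3 (chr1:209780738-209781037), lost signal with cetuximab in SCC1 and holds 2 AP-1 motifs. The second, in the non-coding gene LIN28B-AS1 (chr6:105356788-105357087), gained signal in SCC6, and the third, between genes near RD3 (chr1:211690528-211690723), lost signal in SCC6. Neither holds a listed motif in the stretch shown. The next pair lie within 1 kb of start sites, of CDH26 (chr20:58563368-58563667, 2 AP-1 motifs) and of ZMYND8 (chr20:45986229-45986528, 1 TFAP2 motif). The last pair, in introns of JDP2 (chr14:75919769-75920068) and CRIM1 (chr2:36608264-36608563), were among the 6 strongest regions of the set. They hold TFAP2 and TEAD motifs, with a FOX motif in JDP2 and an SP/KLF motif in CRIM1.
near LAMB3: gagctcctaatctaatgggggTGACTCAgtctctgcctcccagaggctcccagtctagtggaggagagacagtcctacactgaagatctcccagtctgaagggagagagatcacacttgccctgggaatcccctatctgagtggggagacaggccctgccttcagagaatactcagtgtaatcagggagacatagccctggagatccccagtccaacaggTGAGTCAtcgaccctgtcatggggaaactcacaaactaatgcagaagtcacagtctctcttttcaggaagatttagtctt
LIN28B-AS1: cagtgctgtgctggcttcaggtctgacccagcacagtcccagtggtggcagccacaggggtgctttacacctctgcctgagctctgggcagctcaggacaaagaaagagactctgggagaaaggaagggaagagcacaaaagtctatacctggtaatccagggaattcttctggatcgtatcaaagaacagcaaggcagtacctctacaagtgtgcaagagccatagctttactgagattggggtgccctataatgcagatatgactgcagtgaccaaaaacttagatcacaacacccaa
near RD3: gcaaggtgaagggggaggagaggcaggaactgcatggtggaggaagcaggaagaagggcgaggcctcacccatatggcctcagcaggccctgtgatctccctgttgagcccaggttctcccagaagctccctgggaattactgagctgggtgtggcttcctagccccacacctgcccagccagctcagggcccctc
CDH26 promoter: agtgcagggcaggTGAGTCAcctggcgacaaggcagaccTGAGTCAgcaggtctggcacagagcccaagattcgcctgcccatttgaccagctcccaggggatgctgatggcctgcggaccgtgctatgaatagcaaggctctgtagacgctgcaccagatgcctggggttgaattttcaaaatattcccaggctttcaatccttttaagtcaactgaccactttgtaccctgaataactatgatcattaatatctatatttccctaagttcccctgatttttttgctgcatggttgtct
ZMYND8 promoter: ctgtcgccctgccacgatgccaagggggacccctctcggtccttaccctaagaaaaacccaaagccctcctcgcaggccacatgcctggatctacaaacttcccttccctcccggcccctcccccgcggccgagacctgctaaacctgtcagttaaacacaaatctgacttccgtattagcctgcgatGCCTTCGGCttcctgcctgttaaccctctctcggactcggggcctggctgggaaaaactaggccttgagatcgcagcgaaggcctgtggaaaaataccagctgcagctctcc
JDP2 intron: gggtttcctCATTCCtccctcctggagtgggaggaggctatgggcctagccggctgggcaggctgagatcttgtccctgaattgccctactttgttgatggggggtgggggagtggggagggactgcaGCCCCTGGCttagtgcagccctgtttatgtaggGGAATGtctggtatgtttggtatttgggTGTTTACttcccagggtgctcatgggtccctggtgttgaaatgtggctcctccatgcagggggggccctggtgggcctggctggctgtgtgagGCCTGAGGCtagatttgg
CRIM1 intron: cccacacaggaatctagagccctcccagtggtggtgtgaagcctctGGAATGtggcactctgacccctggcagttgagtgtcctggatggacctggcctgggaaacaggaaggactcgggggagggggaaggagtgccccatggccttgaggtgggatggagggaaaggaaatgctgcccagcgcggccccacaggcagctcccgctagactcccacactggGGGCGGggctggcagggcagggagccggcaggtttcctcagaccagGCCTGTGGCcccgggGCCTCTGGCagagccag

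The signal of a region is its number of reads multiplied by a scaling factor of the library (0.331 to 1.95), with 0 reads set to 1 read, which is called the floor. The 17 libraries held 2194851 to 15017130 reads in regions. The deepest were SCC6 cetuximab replicate 3 and SCC25 PBS replicate 1, and the shallowest was SCC1 cetuximab replicate 2. At the promoters of the squamous markers KRT5, TP63, CDH1 and EPCAM every line had signal, whereas at KRT14 the mean was 1.74 in SCC6 against 57.7 in SCC1 and 34.0 in SCC25. The promoters of PTPRC, CD3E and CD79A of leukocytes, PECAM1 and CDH5 of endothelium and COL3A1 of fibroblasts held no region, while COL1A1 (mean 122 to 142 by line) and PDGFRA (16.8 to 44.9) did.

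The signal of the 706 regions was low but measurable in SCC25. The rule asked for peaks in 3 of 5 SCC1 libraries, which held 13035 to 36033 peaks each, and in 3 of 6 SCC6 libraries, which held 47441 to 101272, and this favours regions with a high signal in SCC1. The levels by line are therefore a description. Their median signal was 67.0 to 73.6 over the 5 SCC1 libraries, 44.7 to 54.6 over the 6 SCC6 libraries and 11.9 to 15.6 over the 6 SCC25 libraries. Within SCC6 the cetuximab libraries (53.2 to 54.6) were above the PBS libraries (44.7 to 46.8). The SCC6 medians over all regions were shifted the same way, at 22.5 to 24.2 with cetuximab and 20.5 to 20.7 with PBS. The median over all regions was 19.5 to 24.5 in the SCC25 libraries, so the chosen regions lay under the typical region there and were not empty. The line mean was higher in SCC1 than in SCC6 for 522 of 706 regions (73.9%). In 460 regions (65.2%, against 4.51% of all regions) each SCC25 library was below each SCC1 and SCC6 library, a count that the rule itself favours. The SCC25 mean was a median of 0.318 of the smaller of the SCC1 and SCC6 means. This ratio was under 0.1 in 74 regions, under 0.25 in 268, over 0.5 in 148 and over 1 in 13.

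**Figure D1:**
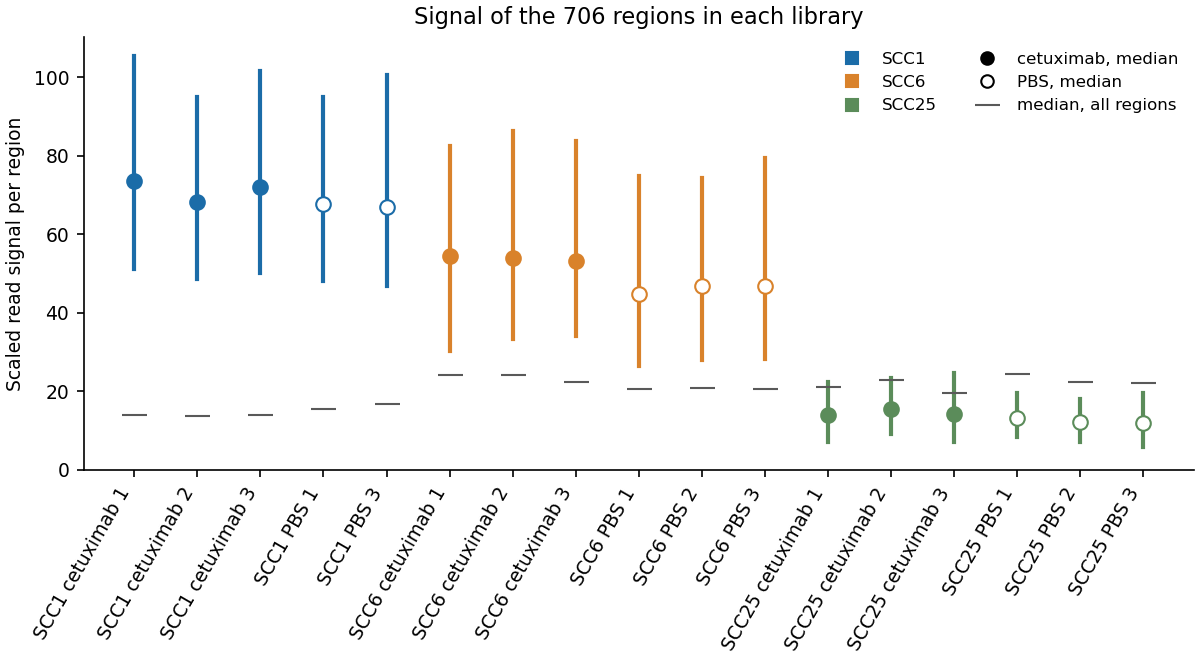
Signal of the 706 regions by library (scaled reads, axis from 0). Points give the median and bars the quartiles in each of the 17 libraries, filled for cetuximab and open for PBS, and dashes the median of all regions. The SCC1 medians (67.0 to 73.6) and SCC6 medians (44.7 to 54.6) lie above the SCC25 medians (11.9 to 15.6).

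The strongest regions of the set were ranked by the smaller of the SCC1 and SCC6 mean log2 signals. The first was an intron of JDP2, which encodes a bZIP protein that represses AP-1 (chr14:75919574-75920265). Its signal was 278, 288 and 318 in SCC1 cetuximab, 222 and 203 in SCC1 PBS, 358, 404 and 372 in SCC6 cetuximab, 265, 272 and 323 in SCC6 PBS, 45.0, 45.6 and 72.6 in SCC25 cetuximab and 35.8, 36.1 and 28.8 in SCC25 PBS. All SCC25 libraries lay below the other 11, without being near the floor. The promoter of GPC1, a heparan sulphate proteoglycan of the cell surface (chr2:241397050-241397755), ranged from 226 to 292 in SCC1, from 148 to 295 in SCC6 and from 30.9 to 60.2 in SCC25. The promoter of the protocadherin PCDH9 (chr13:67804396-67805415) ranged from 174 to 246, from 276 to 328 and from 6.51 to 12.4 in the same order. At both promoters the SCC25 libraries again did not overlap the others. The remaining 3 of the first 6 were a site in the non-coding gene PVT1, with MYC the nearest protein-coding start (chr8:129121154-129121559), the promoter of the adhesion receptor ADGRL2 (chr1:82266006-82267237) and an intron of CRIM1, which encodes a transmembrane protein that binds BMPs. Among promoters, the next were FHIT (chr3:61237002-61237350), a tumour suppressor gene at a fragile site, C3orf14 (chr3:62304283-62305187) and TRHDE, a peptidase gene (chr12:72665226-72666315). FHIT ranged from 140 to 148 in SCC1 and from 152 to 202 in SCC6, and each of the 6 SCC25 libraries was at the floor (0.377 to 1.77).

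Not all regions were far from the edge of the rule. The regions just inside it, with the highest SCC25 means, were introns of BRI3 (chr7:97913732-97914310), of the cadherin gene FAT2 (chr5:150949706-150950351) and of XXYLT1 (chr3:194840234-194840807). BRI3 ranged from 65.5 to 89.9 in SCC25, 182 to 235 in SCC1 and 74.8 to 116 in SCC6, so SCC25 and SCC6 overlapped. The SCC25 means of FAT2 and XXYLT1 were 73.1 and 64.8. The regions just outside, with a peak in 1 SCC25 library and the lowest SCC25 means, lay at GTF2I, SPDYE17 and DTX2 on chromosome 7. All 3 were at the floor in each SCC25 library and, apart from 6.51 at DTX2 in SCC1 PBS replicate 1, in the other libraries too. In all, 609 regions met the SCC1 and SCC6 conditions with a peak in exactly 1 SCC25 library, and for 497 of them that library was the deep SCC25 PBS replicate 1. Without that library the set would hold 1203 regions. In 8 of the 706 regions all 17 libraries were at the floor, and these carry no information. Peaks were called in all 11 SCC1 and SCC6 libraries for 93 regions, in exactly 3 SCC1 libraries for 316 and in exactly 3 SCC6 libraries for 144. The number of the 706 with a peak was lowest in the shallow SCC1 cetuximab replicate 2 (254) and highest in the deep SCC6 cetuximab replicate 3 (700).

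Most of the 706 regions lay away from promoters. Within 1 kb of a protein-coding start site were 70 regions (9.92%), against 13.5% of all regions and 42.7% of the 17317 regions with peaks in at least 3 libraries of each line. Introns held 292 regions, intergenic sequence 328, coding exons 42 and untranslated regions 44. The median distance to a start site was 27.8 kb, against 36.4 kb over all regions, and 509 regions (72.1%) were over 10 kb away. The regions were wider than the typical one (median 352 against 258 bases) and had a GC content of 48.7% against 45.9%. The regions of SCC1 and SCC25 without SCC6 were alike, with 354.5 bases, 52.6% GC and 8.43% at promoters. Those of SCC6 and SCC25 without SCC1 had 394 bases, 46.2% and 11.8%. The width was 544 bases in the regions of all lines. By gene, FAT1, an atypical cadherin that is often inactivated in squamous carcinomas, had the most, with 7 of its 38 regions. MYC had 6 of 92 and TRIML1 4 of 27. DPH6, ETS1, FRG1, GSDMC, IGFBP3, LRRC7, PCDH7, RIPK4 and ZFP42 had 3 each. FRG1 belongs to a family of near-identical copies, so its reads could have been placed at the wrong copy and its values are uncertain.

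TEAD motifs were more frequent in these regions than in any comparison class. The motif CATTCC, searched on both strands in the central 200 bases, was found in 229 of the 706 regions (32.4%), with 2 or more copies in 45. The share was 14.1% in the 1032 regions of SCC1 and SCC25 without SCC6, 19.8% in the 6559 regions of SCC6 and SCC25 without SCC1, 15.3% in the regions of all lines and 16.6% in all 115087 regions. Away from promoters it was 34.1% against 17.8%. The GRHL motif AACNNGTT, of the grainyhead-like factors of epithelia, was found in 50 regions (7.08%, against 3.09% to 4.36% in the other 3 classes and 4.32% overall). The TFAP2 motif GCCNNNGGC was found in 94 (13.3%, against 8.54% overall and 17.3% in regions of all lines).

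The AP-1, RUNX, FOX, SP/KLF and CTCF motifs were less frequent in the set than over all regions. The AP-1 motif TGANTCA was in 175 regions (24.8%), against 26.6% of all regions and 34.9% of those of SCC6 and SCC25. Over whole regions AP-1 stood at 38.2% in the set against 33.5% of all regions. The RUNX motif TGTGGTT was in 22 (3.12%), against 6.64% overall and 14.8% in the regions of SCC6 and SCC25. It was in 2.62% of the regions of SCC1 and SCC25 and 3.61% of those of all lines. A low RUNX share was therefore not particular to the set. The FOX motif TGTTTAC stood at 2.69% against 4.93%, the SP/KLF motif GGGCGG at 10.3% against 12.4%, and the CTCF motif AGGGGGCG at 0.99% against 1.83%. FOX was similar in the regions of SCC1 and SCC25 (2.81%) and of all lines (2.85%), and higher in those of SCC6 and SCC25 (8.60%). Away from promoters CTCF stood at 0.786% against 0.818%. SP/KLF stood at 17.7% against 17.1% over whole regions, and at 6.92% against 5.88% away from promoters. The C/EBP motif TTGCNNAA was more frequent, at 12.7% against 10.9% overall and 7.96% to 10.9% in the other 3 classes. The NF-kB motif GGAANTTCC was in 10 regions (1.42%, against 0.744% overall and 0.194% to 0.820% in the other 3 classes). No listed motif was found in 163 regions. The remaining motifs searched were ACATGTC for the p53 family, CCGGAAGT for ETS, CCATTGT for SOX, GAAANNGAA for IRF, AGATAAG for GATA and the E-box CACGTG. SP/KLF and CTCF letters can overlap. A match is a description of the sequence, not a measured binding site.

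**Figure D2:**
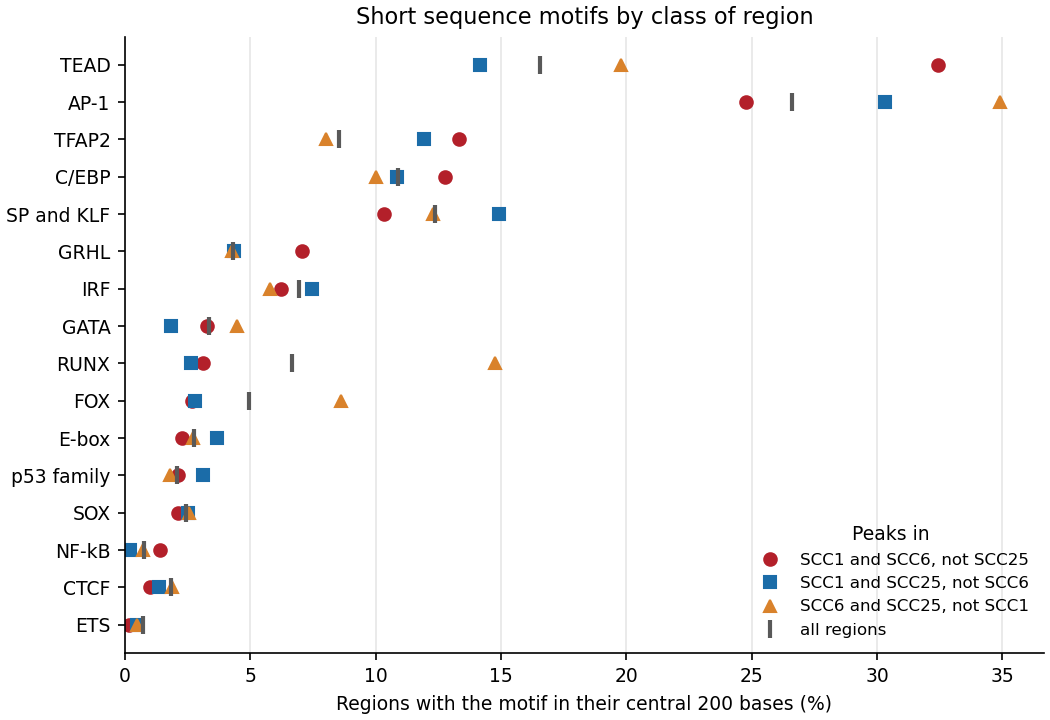
Share of regions (percent, horizontal axis) whose central 200 bases hold each motif, for the 706 regions (red), the classes shared by SCC25 with SCC1 or with SCC6, and all regions. TEAD stands at 32.4% in the 706 regions against 14.1% and 19.8% in those classes. RUNX stands at 3.12% against 2.62% in the regions of SCC1 and SCC25 and 14.8% in those of SCC6 and SCC25.

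In 5 stretches of the genome at least 8 neighbouring regions were all at the floor in every SCC25 library, and 24 of the 706 regions (3.40%) lay in them, against 0.161% of all regions. The rule barred any SCC25 peak, which by itself favours this excess, so the excess is a description and was not tested. These stretches were picked after the values were seen. The longest spanned 3.30 Mb (chr4:186699565-190003309) and held 112 regions, 17 of them in the set, at SORBS2 (2), FAT1 (7), the pluripotency factor gene ZFP42 (3), TRIML2 (1) and TRIML1 (4). At the FAT1 site chr4:187766279-187767077 the signal was 71.1, 81.8 and 103 in SCC1 cetuximab, 103 and 134 in SCC1 PBS, 88.9, 87.3 and 64.8 in SCC6 cetuximab and 62.8, 57.5 and 77.2 in SCC6 PBS. The SCC25 libraries held 0.377 to 1.77, the value of 1 read or none. On chromosome 21, chr21:41696839-43171967 (1.48 Mb, 40 regions) and chr21:43187111-43518285 (0.331 Mb, 17 regions) held 5 and 1 of the set, at the interferon-induced gene MX2, near the serine protease gene TMPRSS2, near the epidermal kinase gene RIPK4 (3) and at ZBTB21. Near RIPK4, at chr21:43147100-43147950, the signal was 99.3 to 182 in SCC1 and 77.2 to 101 in SCC6. A stretch of chromosome 12 (chr12:99849080-100070294, 8 regions) held 1, in an intron of ANKS1B, and a stretch of chromosome 1 with 8 regions held none. Of the 40 regions at the floor in all SCC25 libraries, 32 had reads in other libraries, and 24 of these were in the stretches and 8, FHIT among them, were elsewhere. DNA copy number was not measured here, so missing DNA and closed chromatin cannot be told apart in these stretches.

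In windows of 1 Mb the same places led. The share was highest at chr4:188000001-189000000 (5 of 30 regions, 16.7%), chr4:189000001-190000000 (5 of 31) and chr4:190000001-191000000 (3 of 23). The window chr21:43000001-44000000 held 5 of 40 and chr1:183000001-184000000 held 5 of 59. In the chromosome 1 window, SCC25 was not at the floor, with a mean signal of 24.4 over its 59 regions against 72.2 in SCC1 and 53.9 in SCC6.

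With cetuximab in SCC1, more of the 706 regions gained than lost accessibility. The test was limma on log2(signal + 1) over the whole table, with p-values adjusted by the Benjamini-Hochberg method over all regions tested and a call at 0.05. Of 692 tested, 59 rose and 30 fell, 12.9% in all. The background was 11.1% of all regions tested, 4.58% higher and 6.56% lower. The rise was a median of 2.09-fold among the 59 and the fall 2.00-fold among the 30. The median log2 change was 0.02 over the 692 and -0.09 over all regions. With 3 cetuximab and 2 PBS libraries, the rule can be met in SCC1 by peaks in the cetuximab libraries alone but not by peaks in the PBS libraries alone, which favours regions that rose. Among the regions with peaks in all 11 libraries, 11 rose and 2 fell of 90, where 9.92% of all regions with such peaks rose and 5.10% fell. Centring each library on its median shifted the median change of all regions from -0.09 to 0.10 and the split of the set to 102 higher and 15 lower, where 7.94% of all regions were then higher and 4.23% lower. Without SCC1 PBS replicate 1 the median log2 change was 0.01 in the set and -0.14 over all regions. Without replicate 3 the medians were 0.02 and -0.07. Either fit left 1 PBS library, so no calls are given for it.

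The clearest rises in SCC1 were away from promoters. A first lay between genes near RNF144B, an E3 ubiquitin ligase gene (chr6:18369002-18369349), with 83.8, 75.9 and 67.3 against 6.50 and 8.93. The libraries were well apart, with a log2 change of 3.15 ± 0.41 SE (adjusted p = 1.80e-10). Its peaks in 3 SCC1 libraries, the fewest the rule allows, may have come from the cetuximab libraries alone. Where peaks came from a single treatment, here and at later sites so marked, the p-value is affected by that choice. Another, in an intron shared by CEP295NL and TIMP2, an inhibitor of metalloproteinases (chr17:76895462-76895924), was at 178, 125 and 125 against 45.5 and 39.1 (1.71 ± 0.27, adjusted p = 1.28e-07). Here SCC6 stood at 94.0, 104 and 106 against 87.0, 91.0 and 78.3 and did not pass the test (0.24 ± 0.17, adjusted p = 0.286).

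The clearest falls in SCC1 included the start sites of ADTRP and ZFP42. At ADTRP, which encodes a lipid hydrolase (chr6:11806881-11807372), the signal was 59.7, 91.5 and 43.8 with cetuximab and 186 and 199 with PBS (log2 change -1.62 ± 0.26, adjusted p = 2.64e-07). In SCC6 the same promoter went from 2.42, 17.4 and 2.17 with PBS to 37.4, 47.4 and 47.0 with cetuximab, the opposite direction (2.93 ± 0.47, adjusted p = 1.86e-05). It had peaks in 3 SCC6 libraries, possibly those of cetuximab alone. The region in CAMK1G, 11.1 kb from the start of LAMB3, a chain of the basement membrane protein laminin 332, had 60.9, 37.0 and 31.3 against 125 and 108. It fell by 1.47 on the log2 scale (SE 0.30, adjusted p = 1.26e-04), a call that was lost without SCC1 PBS replicate 1 (-1.37, adjusted p = 0.0594). At exon 4 of ZFP42 (chr4:188923464-188924234), inside the long chromosome 4 stretch, the signal was 127, 99.3 and 84.5 against 212 and 221 (-1.08 ± 0.22, adjusted p = 1.65e-04). With the spread estimated over all 17 libraries its adjusted p was 0.109. It fell in SCC6 too, to 11.1, 42.7 and 32.7 from 100, 89.7 and 123 (-2.00 ± 0.35, adjusted p = 3.88e-04).

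In SCC6, which had 1 PBS library more than SCC1, more of the regions passed the test. Depth was also unlike, with 4098164 to 15017130 reads in regions in the SCC6 libraries and 2194851 to 4171650 in those of SCC1. Of 690 regions tested, 169 rose and 70 fell (34.6%), where the background was 27.5%, with 16.9% higher and 10.6% lower. The rule favours regions that rose in SCC6 as well. Peaks lay in every SCC6 cetuximab library and no PBS library for 65 regions, and the reverse for 6. The SCC6 cetuximab libraries held 61122 to 101272 peaks each and the PBS libraries 47441 to 66383. The median fold among the called regions was 2.14 up and 1.72 down. The median log2 change of the set was 0.09 and that of all regions 0.11. Among the regions with peaks in all 11 libraries, 22 rose and 11 fell of 90, where 9.61% of all regions with such peaks rose and 14.7% fell. The size of the balance depended on the scaling. Centring on library medians moved the median change of all regions from 0.11 to -0.06, and 137 of the set were then higher and 130 lower, where 12.04% of all regions were higher and 18.3% lower. The median change of the set was then -0.08. The split of the set was 150 to 103 after quantile normalization, 155 to 90 by edgeR and 132 to 77 by DESeq2. Over all 86315 regions tested, the split of higher to lower was 11366 to 12979, 13184 to 11561 and 9287 to 9496 in the same order.

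The leading rises in SCC6 were between protein-coding genes. Near CYRIB, a regulator of the GTPase RAC1 (chr8:131041569-131041941), the signal was 325, 350 and 305 with cetuximab and 77.3, 51.5 and 75.0 with PBS (log2 change 2.27 ± 0.14, adjusted p = 2.09e-17). SCC1 moved the same way at lower levels (91.4, 99.3 and 90.8 against 45.5 and 55.8, log2 change 0.88 ± 0.28, adjusted p = 0.0238). In LIN28B-AS1, 27.1 kb from the start of LIN28B, whose product blocks maturation of let-7 microRNAs (chr6:105356530-105357347), SCC6 went from 25.4, 23.4 and 19.6 to 174, 146 and 160 (2.76 ± 0.21, adjusted p = 1.60e-14). SCC1 was open under both treatments, at 164, 189 and 197 against 140 and 132, and did not pass (0.42 ± 0.21, adjusted p = 0.197). The LIN28B-AS1 site had peaks in 3 SCC6 libraries, the fewest the rule allows, so the cetuximab libraries alone may have met it. In PVT1 (chr8:128879183-128879813), 129 kb from the start of MYC, the signal was 301, 275 and 273 against 44.7, 71.6 and 80.5 (2.13 ± 0.16, adjusted p = 1.88e-14). SCC1 was again high in all libraries (236 to 297).

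The leading falls in SCC6 were the site near RD3, a gene of retinal cyclase control (chr1:211690528-211690723), a site in ZNF503-AS1 near COMTD1 (chr10:77005243-77005705) and a SOGA1 intron near the kinetochore gene DSN1 (chr20:35437246-35437566). Near RD3 the signal was 17.2, 20.4 and 16.9 with cetuximab and 93.0, 72.3 and 91.4 with PBS (log2 change -2.17 ± 0.25, adjusted p = 2.84e-09). In ZNF503-AS1 it was 16.2, 28.8 and 12.9 against 94.2, 63.6 and 89.2 (-2.10 ± 0.27, adjusted p = 4.11e-08). Both also fell in SCC1, by 0.85 and 0.81 on the log2 scale (adjusted p = 0.0489 and 0.0134). The RD3, ZNF503-AS1 and SOGA1 sites each had peaks in 3 SCC6 libraries, so the PBS libraries alone may have met the rule. In SOGA1 the signal was 17.2, 15.8 and 10.9 against 60.4, 56.9 and 59.8 (-1.97 ± 0.28, adjusted p = 4.16e-07), and SCC1, at 48.7 to 67.3 against 36.4 and 52.5, did not pass (0.44 ± 0.32, adjusted p = 0.432).

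**Figure D3:**
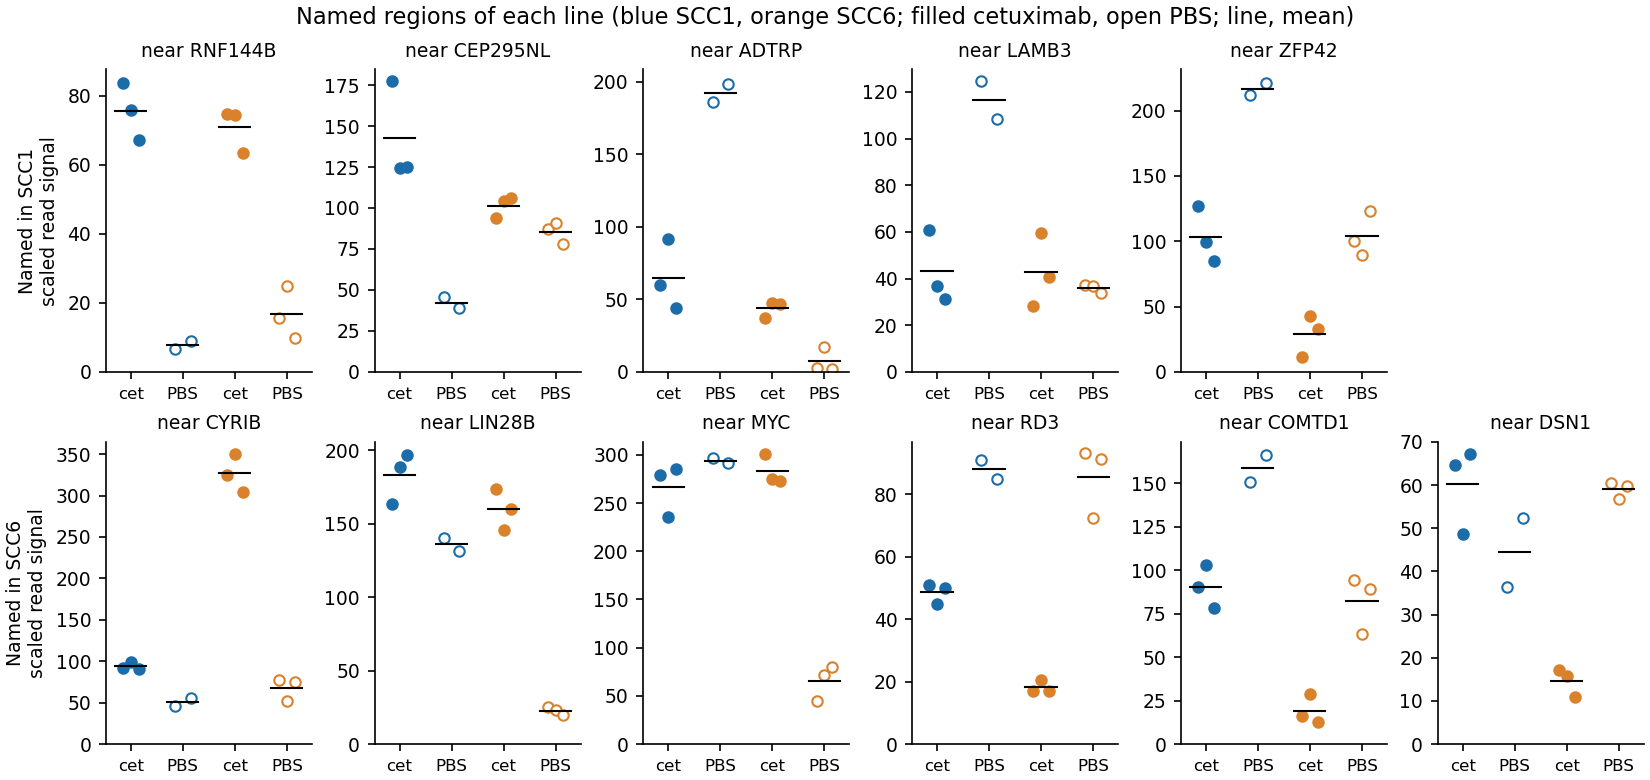
Signal (scaled reads, axes from 0) of 11 named regions in the 11 SCC1 and SCC6 libraries, with 1 panel a region titled by the nearest gene, 1 point a library and a line at each group mean. The site near RNF144B rises in SCC1 from 6.50 to 8.93 with PBS to 67.3 to 83.8 with cetuximab, the LIN28B-AS1 site rises in SCC6 from 19.6 to 25.4 to 146 to 174, and ADTRP falls in SCC1 and rises in SCC6.

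In a fit of SCC1 and SCC6 together, with the line as a term, 83 regions rose and 33 fell of 688 tested (16.9%, background 11.7%, with 5.43% higher and 6.25% lower). The clearest common rises were the site near RNF144B (2.57 ± 0.27, adjusted p = 1.28e-04), a site far from any coding gene, with PYDC2 nearest (chr3:191607483-191608249), and a site near DCAF4L2 (chr8:88880699-88881102). At the PYDC2 site SCC1 had 137, 181 and 208 with cetuximab against 48.1 and 69.2 with PBS, and SCC6 109, 137 and 121 against 29.0, 32.1 and 30.4. Neither line overlapped between treatments (1.79 ± 0.16, adjusted p = 5.83e-05). The DCAF4L2 site rose by 2.53 ± 0.30 (adjusted p = 2.44e-04). The rule favours rises in this fit too. The RNF144B and DCAF4L2 sites had peaks in 3 SCC1 and 3 SCC6 libraries, possibly those of cetuximab alone. Their p-values are therefore affected by how the regions were chosen. The clearest common falls were a site 632 kb from the start of MYC (chr8:129382133-129382439) and the sites near RD3 and COMTD1 already described (-1.58 and -1.52). At the MYC site SCC1 had 26.7, 38.9 and 39.1 against 92.4 and 113, and SCC6 27.3, 30.6 and 32.4 against 72.5, 77.6 and 72.9 (-1.40 ± 0.17, adjusted p = 3.08e-04).

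Called alone, 45 of 690 regions tested in both lines passed in both, 50.6% of the 89 SCC1 calls and 18.8% of the 239 SCC6 calls. They rose in both lines in 28 cases, fell in both in 7 and moved in opposite directions in 10. Over all regions the shares were 36.5% and 15.0%. There 3068 regions passed in both lines, of which 825 rose in both, 1493 fell in both and 750 moved in opposite directions. The difference between the responses was itself tested as an interaction of line and treatment. It passed in 123 of 688 regions (17.9%, background 10.6%), with the response higher in SCC6 in 81 and lower in 42, where 6.75% and 3.80% of all regions did so. Centring on library medians moved the median of all regions from 0.13 to -0.25 and the split to 47 and 91, where 3.68% of all regions were then higher and 10.3% lower, so the direction of this balance changed with the scaling. Without SCC1 PBS replicate 1, which left 1 PBS library in SCC1, the median was 0.08 in the set and 0.13 over all regions.

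Of the clearest differences in response, 3 of 4 lay between coding genes. At a site with SUPT3H, a subunit of the SAGA co-activator, as the nearest coding gene (chr6:44703295-44703729), SCC1 had 66.0, 75.9 and 57.9 with cetuximab against 151 and 164 with PBS. SCC6 had 67.7, 73.3 and 52.2 against 18.1, 18.1 and 14.1, so the treated levels overlapped and the untreated levels did not (difference of log2 changes 3.11 ± 0.33, adjusted p = 7.26e-05). LIN28B-AS1 followed (2.34 ± 0.25, adjusted p = 7.26e-05). The SUPT3H and LIN28B-AS1 sites each had peaks in 3 SCC6 libraries, possibly those of cetuximab alone. In the other direction, an intron of PHACTR3, a regulator of actin and protein phosphatase 1 (chr20:58401304-58401800), was at 387, 280 and 321 against 164 and 188 in SCC1. In SCC6 it was at 128, 113 and 104 against 210, 173 and 210 (difference -1.67 ± 0.22, adjusted p = 3.34e-04). A site near PWWP2B (chr10:134232316-134232759) rose in SCC1, from 96.3 and 104 to 240, 200 and 210, and fell slightly in SCC6, from 172, 179 and 174 to 128, 150 and 136 (-1.45 ± 0.20, adjusted p = 4.35e-04).

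**Figure D4:**
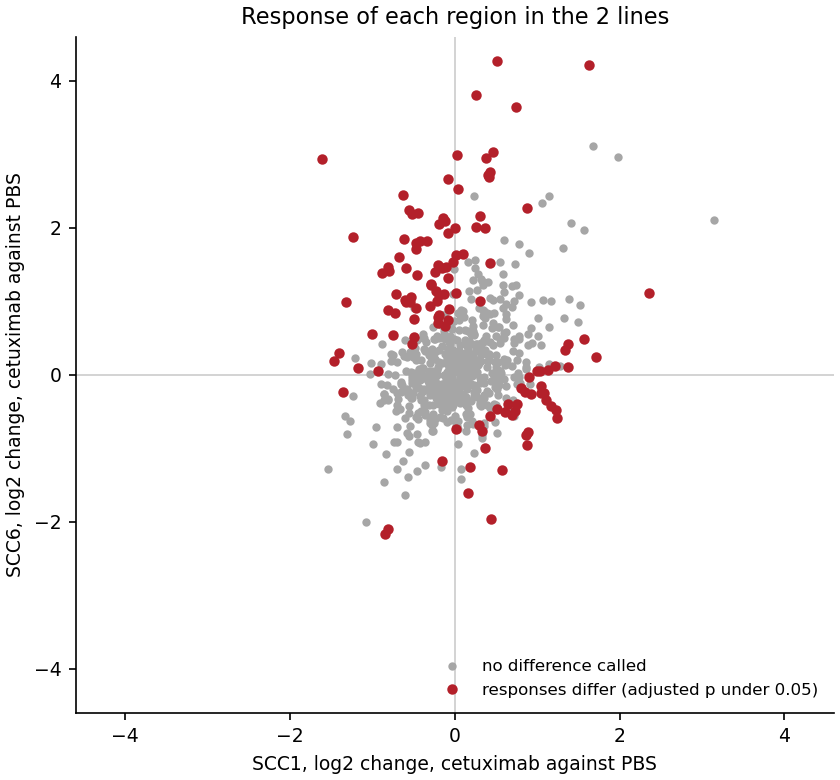
Log2 change with cetuximab in SCC6 (vertical axis) against that in SCC1 (horizontal axis) for each of the tested regions of the set, with the 123 regions whose responses differed in red. The site near SUPT3H lies at -1.24 in SCC1 and 1.87 in SCC6, and the site near RNF144B at 3.15 and 2.10.

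The lines were also compared without treatment. The rule favours regions with a high signal in SCC1, through the fewer peaks called in its libraries, so these values are a description of the set and are given for the sites without p-values. In SCC6 PBS against SCC1 PBS, 84 of 689 regions passed the limma test as higher and 305 as lower (56.5%, background 63.4%, with 36.7% higher and 26.7% lower). The median log2 difference was -0.54 in the set and 0.12 over all regions. With the trend on GC content removed the counts were 189 and 205 and the median -0.04, so the lower level in SCC6 was not seen under that setting. The clearest sites higher in SCC6 were 2 on chromosome 11 with the ciliary dynein gene DYNC2H1 (chr11:103464990-103465449) and the cation channel gene TRPC6 (chr11:101316525-101317349) nearest. Near DYNC2H1 the PBS signal was 377, 402 and 380 in SCC6 and 37.7 and 25.7 in SCC1 (log2 difference 3.59 ± 0.17 SE). Near TRPC6 it was 442, 446 and 513 against 93.7 and 102 (log2 difference 2.24 ± 0.11 SE). The lines did not overlap at either site, and gene copy number and accessibility cannot be told apart there. The clearest sites lower in SCC6 were 1 at 37.9 kb from AMOTL2 (chr3:134052439-134052858) and an intron of the semaphorin receptor gene PLXNA2 (chr1:208405264-208405588). At AMOTL2 the PBS signal was 24.2, 27.4 and 19.6 in SCC6 and 210 and 240 in SCC1 (log2 difference -3.20 ± 0.22 SE). At PLXNA2 it was 14.5, 13.4 and 9.79 against 185 and 175 (log2 difference -3.76 ± 0.26 SE).

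In SCC25 the regions stayed low under both treatments. Of 648 tested, 3 rose and none fell (0.463%, background 0.315%, with 0.0405% higher and 0.275% lower). An unadjusted limma p under 0.05 was found in 71 of the 648 and in 11405 of all 86315 regions tested. The median log2 change was 0.17 in the set and -0.08 over all regions. The rule excluded peaks most often through the deep SCC25 PBS replicate 1, which bears on this contrast. The 3 were an intron of the monocarboxylate transporter gene SLC16A7 (chr12:60130615-60130970), exon 14 of THSD7B (chr2:138169138-138169563) and LIN28B-AS1. In LIN28B-AS1 the signal was 66.1, 60.6 and 76.2 with cetuximab and 28.6, 27.4 and 35.6 with PBS (1.12 ± 0.23, adjusted p = 0.0338). In SLC16A7 it was 43.6, 28.0 and 33.6 against 12.8, 5.77 and 13.6 (adjusted p = 0.0490), and in THSD7B 38.0, 21.5 and 39.0 against 13.6, 7.93 and 3.39 (adjusted p = 0.0454). Treatments did not overlap at any of the 3. Leaving out any single SCC25 library left 0 to 2 calls, with 0 without any 1 of the PBS libraries. By edgeR there were 9 calls (1.39%), where 1.12% of all regions were called.

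The calls were also counted by motif and place, beside those of all regions with the same motif or place. Of 225 tested regions with a TEAD motif, 69 rose and 20 fell in SCC6, near the 26.7% and 9.28% of all regions with that motif. In SCC1, 25 rose and 4 fell of 225, where 4.41% and 6.51% of all regions with the motif did so. Of 172 regions with an AP-1 motif, 8 rose and 5 fell in SCC1, where 11.1% of all AP-1 regions fell, and 40 rose and 16 fell in SCC6, where 14.4% rose and 17.6% fell. Of 23 with a GATA motif, 13 rose in SCC6, where 28.7% of all such regions did. Of 68 promoters, 7 rose and 9 fell in SCC6, where 3.77% and 10.9% of all promoters did so. In SCC1, 3 promoters of the set rose and 2 fell, where 13.6% and 1.60% of all promoters did so.

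Of 15 lists of genes, the inflammatory cytokines and chemokines (4 of 100 regions, 4%) and the TEAD and Hippo genes (6 of 182, 3.30%) had the highest shares in the set, against 0.613% of all regions. Of the TEAD and Hippo genes, AMOTL1 and AMOTL2, angiomotin-like proteins that bind YAP, had 2 each, and CCN2, a secreted target gene of YAP, and VGLL1, a TEAD cofactor, had 1 each. With cetuximab in SCC6, 2 of the 6 rose, where 23.03% of all tested regions of the list rose and 13.3% fell. The AMOTL2 site described above went from 24.2, 27.4 and 19.6 to 166, 122 and 138 (2.53 ± 0.22, adjusted p = 7.42e-13), while SCC1 stood at 258, 162 and 293 against 210 and 240. A site 133 kb from CCN2 (chr6:132405874-132406351) went from 58.0, 45.5 and 51.1 to 185, 164 and 141 in SCC6 (1.64 ± 0.18, adjusted p = 2.92e-10), and in SCC1 it was 58.4 to 84.5 under either treatment. Both responses differed between the lines (adjusted p = 2.83e-04 and 0.00352). The AMOTL2 site had peaks in 3 SCC6 libraries, possibly those of cetuximab alone. In SCC1, where 3.15% of the list rose and 10.7% fell, 1 of the 6 fell, in exon 2 of AMOTL1 (chr11:94527564-94528308), from 210 and 269 to 107, 160 and 120 (-0.90 ± 0.21, adjusted p = 0.00108).

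The squamous lineage factors had 6 of 337 regions in the set (1.78%), and in SCC6 3 rose and 1 fell, where 14.2% of all tested regions of the list rose and 22.9% fell. Near GRHL2 (chr8:102450597-102451057) the SCC6 signal went from 60.4, 52.2 and 56.6 to 88.9, 93.8 and 113 (0.79 ± 0.19, adjusted p = 0.00139), whereas SCC1 ranged from 158 to 244. Both regions near KLF5 rose in SCC6, by 0.56 and 0.84 on the log2 scale (adjusted p = 0.00987 and 0.0475). The region nearest to TFAP2A, 872 kb from its start (chr6:9532777-9533086), fell in SCC6 from 39.9, 53.5 and 52.2 to 31.3, 15.8 and 13.2 (-1.31 ± 0.30, adjusted p = 6.19e-04). The regions of ELF3 and of a TP63 intron passed in neither line. In SCC1 the adjusted p of the 6 was 0.106 or more. The keratin and adhesion genes had 2 of 199 regions in the set, and the 1 near KRT19 passed in neither line.

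The EGFR family list had 1 of its 225 regions in the set (0.444%). It lay in ERBB2, the partner receptor of EGFR, in an intron (chr17:37862003-37862381). The signal rose in SCC1 from 65.0 and 43.5 to 118, 87.6 and 90.8 (0.87 ± 0.28, adjusted p = 0.0239), and SCC6 was 50.7 to 73.6 under both treatments. The difference between these responses did not pass (-0.79 ± 0.32, adjusted p = 0.125). In SCC25 the signal was 26.7, 33.9 and 28.3 with cetuximab and 12.1, 16.6 and 14.4 with PBS, and was not called. The receptors and ligands that can bypass EGFR had 5 of 296 (1.69%). Of these an intron of MET (chr7:116420844-116421405) rose in SCC1 from 52.0 and 36.9 to 105, 75.9 and 86.1 (0.99 ± 0.29, adjusted p = 0.0123) and did not pass in SCC6, and the responses differed (adjusted p = 0.0423). In SCC6 the regions near IGF1 and KIT rose, by 0.48 and 1.05, and the region near FGFR3 fell by 0.65 on the log2 scale, where 24.9% of that list rose and 9.61% fell. The ERK feedback list had 3 of 283, and 2 fell in SCC6, at the SPRED2 promoter (-0.51 ± 0.19, adjusted p = 0.0372) and near the phosphatase gene DUSP1 (-0.84), where 10.4% of the list rose and 18.0% fell.

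Of 5 regions of TGF-beta and BMP genes (of 506), 4 rose in SCC6, those near ACVR2A, in ACVR1 and near INHBA among them, and 1 fell, near TGFBR2, where 21.03% of the tested regions of these genes rose and 13.1% fell. Nearest to INHBA, which encodes a subunit of activin (chr7:41043194-41043580), SCC6 went from 48.3, 54.2 and 59.8 to 89.9, 113 and 102 (0.90 ± 0.19, adjusted p = 3.18e-04), and SCC1 stood at 97.3 to 117 under either treatment. Of the mesenchymal list, with 2 of 452, the region near FN1 (chr2:216341223-216341590) rose in both lines, from 3.62, 4.68 and 10.9 to 25.2, 48.3 and 37.4 in SCC6 (2.44 ± 0.40, adjusted p = 5.77e-06) and from 32.5 and 17.9 to 47.0, 66.2 and 51.6 in SCC1 (1.14 ± 0.37, adjusted p = 0.0253). The FN1 site had peaks in 3 SCC1 and 3 SCC6 libraries, possibly those of cetuximab alone. The 4 regions of cytokine and chemokine genes were 2 near CXCL8 and 2 near LIF. The region chr4:74593399-74593693, near the neutrophil chemokine gene CXCL8, fell in SCC1 from 138 and 165 to 73.6, 77.9 and 89.2 (-0.91 ± 0.25, adjusted p = 0.00631). The region 35.9 kb from LIF fell in SCC6 (-0.57) and not in SCC1, and these responses differed (adjusted p = 0.0134). The 7 regions of developmental factors (of 948) held 1 call, a fall near IRX2 in SCC6 (-0.71). The NOTCH list had 1 of 186, a MAML2 intron that rose in SCC6 (0.87), and the WNT list 1 of 358, near TCF7L1, with no call. The AP-1 family, with 175 regions, and the interferon and antigen presentation genes, with 51, had none. The genes often deleted in squamous carcinomas had 11 of 566, 7 of them at FAT1. At the FAT1 site chr4:188050157-188050488 SCC6 rose from 16.9, 16.7 and 22.8 to 54.5, 61.3 and 59.8 (1.60 ± 0.27, adjusted p = 8.14e-06), SCC1 stood at 54.6, 60.3 and 65.7 against 102 and 92.7, and every SCC25 library was at the floor. This site had peaks in 3 SCC6 libraries, possibly those of cetuximab alone.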

How the data were processed

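ATAC-seq of 3 lines was analysed in 17 libraries. According to the sources, the authors trimmed reads with Trim Galore 0.5.0, aligned them to hg19 with Bowtie2 2.3.2, used Picard 2.18 to drop duplicates and mitochondrial reads and SAMtools 1.9 to drop reads of low quality. MACS2 gave broad peaks for single libraries, and DiffBind joined these into regions (versions not given in the sources used here). The deposited region table holds a scaled signal, and 100% of its values are whole multiples of 1 step per library within 0.001. The deposited peak lists give a fold enrichment (ratio) and p and q as −log10 values and a score, and only their positions and q were used. Coordinates are those of the table. Genes came from GENCODE 44 on GRCh37.

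Regions were tested with limma 3.58.1 in R 4.3.3 on log2(signal + 1), a pseudocount of 1, with trend and robust variances, two-sided, after leaving out the 25% of regions with the lowest mean, and fold changes are on that scale. Within-line tests used the libraries of that line. The fits were tested on simulated data. Alternatives used edgeR 4.0.16 and DESeq2 1.42.0 on the recovered reads, other scalings, filters and pseudocounts, GC correction, a replicate block, stricter peak rules and leaving out each library. Depth was 2194851 to 15017130 reads, and errors cover these libraries only.

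The members and lists were chosen with earlier results of these data known. Named regions are the 3 with the smallest adjusted p per direction and line whose treatments do not overlap, the 2 per direction for the difference in response and for PBS, the 6 strongest regions and promoters, those at the edge of the rule, and list members. Regions on chromosome 8 or touching a UTR were passed over for printed sequences. Some regions named by these rules are not reported here. A region was given to a gene when in its body, or else to the nearest start site. List members described with values beyond the 2 strongest of each list, and the stretches at the floor, were chosen after their values were seen.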

Additional observations from a re-analysis of the deposited data

Results flagged for a closer look

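The response to cetuximab differed between SCC1 and SCC6, by a test of the difference itself, in 123 of the 688 regions tested. The 4 named ones were the site nearest to SUPT3H, with a difference of log2 changes (SCC6 minus SCC1) of 3.11, LIN28B-AS1 with 2.34, the PHACTR3 intron with -1.67 and the site near PWWP2B with -1.45. SUPT3H, PHACTR3 and PWWP2B passed the test within each line in opposite directions, while LIN28B-AS1 passed in SCC6 and not in SCC1. No group had the 4 or more samples needed to look for single outlying libraries.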

How the results depend on the processing

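Of the alternative values of the main results, which are counts of regions, 105 stayed within 1.5 times the reported count and 22 did not. They are given here, apart from counts of fits that leave 1 SCC1 PBS library. Centring on library medians turned the balance of the difference in response (81 higher and 42 lower became 47 and 91, with the median of the set going from 0.10 to -0.29) and the sign of the set's median change in SCC6 (0.09 became -0.08). For the named regions, 195 values with a library left out and 259 under other settings kept direction and call, and 1 of each did not, the LAMB3 and ZFP42 regions whose values stand in the report.

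The set itself moved most. It held 289 regions (124 shared) when a peak had to cover at least 0.5 of the region, 309 (222 shared) with peaks at q under 0.001, 93 with peaks in all SCC1 and SCC6 libraries, and 446 to 1203 when 1 library was left out (446 without SCC1 PBS replicate 3, 448 without SCC1 PBS replicate 1, 468 without SCC1 cetuximab replicate 1 and 1203 without SCC25 PBS replicate 1). With all libraries in 1 fit, 52 regions were called in SCC1 (7.57%, against 14.5% of all regions). There were 148 in SCC6 (21.5% against 17.5%) and 12 in SCC25 (1.75% against 0.0452%). In SCC25 the counts were 1 with a pseudocount of 0.5, 1 with GC correction and 9 with edgeR. The shares of all regions were 0.258%, 0.104% and 1.12% in the same order. Leaving out 1 library gave 27 to 121 calls in SCC1, 202 to 233 in SCC6, 81 to 122 in both lines, 76 to 147 for the difference in response, 341 to 361 for PBS and 0 to 2 in SCC25. The causes were not tested, beyond the fewer samples when a library is left out.

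With a replicate block, 124 regions were called in SCC1, 245 in SCC6, 67 in both lines together, 144 for the difference, 353 for PBS and 5 in SCC25. The shares of all regions were 14.4%, 28.7%, 6.02%, 13.7%, 58.9% and 0.862% in the same order. Same-numbered libraries did not deviate together (r from -0.023 to 0.038), so the numbers were not taken to pair samples. Counts over only the regions outside the stretches at the floor (59 higher and 29 lower in SCC1, 166 and 66 in SCC6) were added after seeing the data. The motif counts rise when whole regions are searched (316 for TEAD, 270 for AP-1). TEAD then stood at 44.8% against 23.3% of all regions, and AP-1 at 38.2% against 33.5%. Depth limits the peak calls: the shallowest library, SCC1 cetuximab replicate 2, held 2194851 reads and peaks at 254 of the 706 regions.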
